A study of Mus musculus with 16 samples.

Results

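Gata6 and 7 genes tied to the identity of peritoneal macrophages (Rarb, Prg4, Tgfb2, Aspa, Icam2, Selp and Saa3) were followed over all 7 groups of an array study of Bhlhe40, which encodes a transcriptional repressor with a basic helix-loop-helix domain. The genes were taken by symbol, and 7 of the 8 had a probe set of a single symbol, 1 each, among 19938 genes with such a probe set. All 7 passed the filter on dim signal that kept 11634 genes for testing, and the filter could be passed through the peritoneal arrays alone. Selp, which encodes the adhesion receptor P-selectin, was not analysed here because no probe set carried its symbol alone.

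RNA came from macrophages sorted from male C57BL/6 mice and was hybridised to 16 one-colour Affymetrix arrays, whose values are given as log2 signal. Large peritoneal macrophages (LPM) from lavage of mice injected with IL-4c on days 0 and 2 and killed on day 4 comprised 2 arrays of Bhlhe40LysM mice (LysM), 2 of Bhlhe40-/- mice (KO) and 2 of Bhlhe40+/+ mice (WT). Bhlhe40LysM stands for mice with a LysM-Cre transgene and a floxed Bhlhe40 gene, in which Cre is driven by a promoter active in macrophages and neutrophils, and the labels do not say whether the WT mice carried Cre. LPM of untreated (naive) mice comprised 3 KO and 3 WT arrays, and alveolar macrophages (AM) from lung digests of untreated mice comprised 2 KO and 2 WT arrays. There was no naive LysM group and there were no IL-4c AM. The labels give no age and no dose, and do not say whether an array held 1 mouse or a pool, so the p-values cover array-to-array spread that may be technical, and the small number of arrays limits the precision.

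As background, Gata6 is a zinc-finger transcription factor that resident macrophages of the peritoneal cavity need for their tissue-specific programme and for balanced self-renewal. Retinoic acid made in the cavity and omentum sustains Gata6 there, and Rarb, a retinoic acid receptor, is itself a direct target of retinoic acid. IL-4c, a complex of the cytokine IL-4 with an antibody, drives resident macrophages into alternative activation and local division. Among the other genes, Tgfb2 encodes a secreted ligand of the TGF-beta family, Prg4 the lubricating proteoglycan lubricin, Icam2 an adhesion molecule used to recognise these cells, Aspa the enzyme that splits N-acetylaspartate, and Saa3 an acute-phase serum amyloid A protein made by macrophages.

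Promoter windows of Rarb, Tgfb2 and Saa3 are shown because Rarb and Tgfb2 are the genes whose level differed between genotypes under IL-4c (below), and Saa3 carries a GATA motif. Each window runs from 250 bases before to 50 bases after the start, from RefSeq on GRCm38.p6, minus strand. They lie at chr14:16575427-16575726 (Rarb), chr1:186705940-186706239 (Tgfb2) and chr7:46715627-46715926 (Saa3). Each window lies inside the gene's span given below, which extends further upstream, so positions refer to a start within the gene. Capitals mark a retinoic acid response element in Rarb, the class B E-box CACGTG, which Bhlhe40 is known to bind, in Tgfb2, and a GATA motif on the opposite strand in Saa3.
Rarb: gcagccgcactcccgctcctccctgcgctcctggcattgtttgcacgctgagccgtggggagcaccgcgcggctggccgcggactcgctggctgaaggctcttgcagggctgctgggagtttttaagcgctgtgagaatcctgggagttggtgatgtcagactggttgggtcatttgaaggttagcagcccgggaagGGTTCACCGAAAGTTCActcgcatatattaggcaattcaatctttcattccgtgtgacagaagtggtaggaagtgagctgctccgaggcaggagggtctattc
Tgfb2: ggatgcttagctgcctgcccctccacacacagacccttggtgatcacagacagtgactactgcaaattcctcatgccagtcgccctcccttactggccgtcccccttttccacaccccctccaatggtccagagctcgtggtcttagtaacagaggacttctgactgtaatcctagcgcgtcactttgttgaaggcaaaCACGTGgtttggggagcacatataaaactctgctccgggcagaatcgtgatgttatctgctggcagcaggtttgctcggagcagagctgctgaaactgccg
Saa3: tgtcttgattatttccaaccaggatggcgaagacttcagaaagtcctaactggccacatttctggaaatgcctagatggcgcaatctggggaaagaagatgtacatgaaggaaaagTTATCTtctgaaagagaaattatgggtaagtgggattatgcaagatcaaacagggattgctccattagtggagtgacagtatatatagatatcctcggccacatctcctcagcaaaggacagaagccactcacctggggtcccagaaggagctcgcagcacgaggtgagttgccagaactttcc

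The Rarb element reads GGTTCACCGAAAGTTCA, a direct repeat of half-sites separated by 5 bases, at positions -53 to -37 from the start. Among 32851 windows of the same length, 0.588% held a match to any of the 48 patterns searched on both strands, which were direct repeats of the half-sites AGGTCA or AGTTCA and GGTTCA or GGGTCA, in any pairing, separated by 1, 2 or 5 bases. The Tgfb2 E-box lies at positions -51 to -46, and CACGTG was present in 7.15% of windows. The Saa3 GATA motif lies at positions -134 to -129, and a match to AGATAA or TGATAA, and also AGATAG or TGATAG, on either strand was present in 29.8% of windows. Tgfb2 also holds TTATCT, the complement of AGATAA, in lower case at bases 2 to 7 from its start. Windows of Aspa and Selp held none of the 3 kinds of motif. A match is a stretch of letters and says nothing about binding in these cells.

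Array medians lay between 4.79 and 4.93, and arrays of a group correlated at 0.989 to 0.995 across probe sets. Bhlhe40 itself checks the genotype labels. Its difference in KO from WT was -2.17 ± 0.19 in AM (SE, limma adjusted p = 6.1e-05), -1.89 ± 0.15 in naive LPM (adjusted p = 6.4e-06) and -0.93 ± 0.19 in IL-4c LPM (adjusted p = 0.013). The probe set still read 6.5 to 8.01 on KO arrays, above the array median on each. In KO LPM it was 2.23-fold higher with IL-4c than without (limma adjusted p = 0.00011). The labels are thus checked by a difference and not by absence of signal. On the arrays labelled LysM Bhlhe40 read 8.75 and 8.83, against 8.77 and 8.99 on WT arrays, so its signal did not separate the arrays labelled LysM from WT (adjusted p = 0.84). Whether the probe set lies in the floxed exons was not tested. AM markers averaged 4.49 to 5.31 on LPM arrays and 10.13 to 10.49 on AM arrays (10 measured of 12 listed). Marco among them did not separate the tissues, at 7.2 to 10.06 on LPM and 8.4 to 9.78 on AM arrays. LPM markers outside the members averaged 9.01 to 9.4 on IL-4c LPM, 9.8 to 10.15 on naive LPM and 7.77 to 7.92 on AM arrays. Of these 7 markers, 4 (Itgam, Timd4, Csf1r and Adgre1) were called higher in naive LPM than in AM, in both genotypes. Mertk was called lower in both, and Fcgr1 in KO. The highest value on an array was 13.67 to 13.84 under IL-4c and 13.15 to 13.33 on the other arrays.

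All 7 measured genes were higher in LPM than in AM, in both genotypes, and no LPM array overlapped an AM array for any of them. How many of all genes tested showed no overlap was not counted. All 7 were called in each genotype. Of all genes tested, 40% were called in KO and 38.3% in WT at an adjusted p under 0.05 (limma, Benjamini-Hochberg), and 17.3% in KO and 21.2% in WT were called higher in LPM. Since the genes were listed for their known peritoneal expression, this direction is the list's own and is given as a description of its size. All 84 values of the 7 genes on the 12 LPM arrays lay above the array's median signal. On the 4 AM arrays 8 of 28 values did. The LPM values lay between the 86.2 and the 100 percentile of the 19938 genes with a probe set of a single symbol.

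Gata6 (Entrez 14465; chr18:11052510-11085636, GRCm38.p6) read 8.54 to 9.26 on LPM arrays and 4.22 to 5 on AM arrays. The gap between its lowest LPM and its highest AM array was 3.54. In naive mice LPM exceeded AM by 4.17 in KO and by 4.31 in WT, an 18-fold and a 19.8-fold difference. Its AM level was above the array median on 1 of 4 arrays, so these folds rest on an AM level close to array background, which carries no detection call here. The receptor gene Rarb (Entrez 218772; chr14:16430839-17082331) behaved alike at a smaller size, with 7.65 to 8.39 on LPM arrays and 4.27 to 4.78 on AM arrays.

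Among secreted products, Prg4 (Entrez 96875; chr1:150449412-150466221) read 11.36 to 12.63 on LPM arrays and 3.71 to 4.1 on AM arrays. The AM values lay at the 26 to 33.8 percentile of those genes on the array that had a probe set of a single symbol. The log2 difference of 8.65 in KO and 8.55 in WT is thus set against signal close to array background and is given without a fold. Saa3 (Entrez 20210; chr7:46711998-46719615) read 11.7 to 12.25 on LPM arrays and 3.58 to 3.98 on AM arrays. Tgfb2 (Entrez 21808; chr1:186622787-186709697) was the only one of the 7 above the array median on all 4 AM arrays. It lay there at the 63.4 to 72.3 percentile, and its gap between the lowest LPM array (7.96) and the highest AM array (6.48) was 1.48.

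Of the other genes, the surface molecule Icam2 (Entrez 15896; chr11:106377656-106388139) read 10.72 to 11.22 on LPM arrays and 4.64 to 5.25 on AM arrays, where it exceeded the median on 3 of 4 arrays. The enzyme gene Aspa (Entrez 11484; chr11:73304987-73326876) read 9.18 to 10.03 on LPM arrays and 3.66 to 3.88 on AM arrays. Rarb, Prg4, Aspa and Saa3 were below the array median on all 4 AM arrays. In these bulk samples fewer cells of a type and less RNA per cell cannot be told apart.

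**Figure D1:**
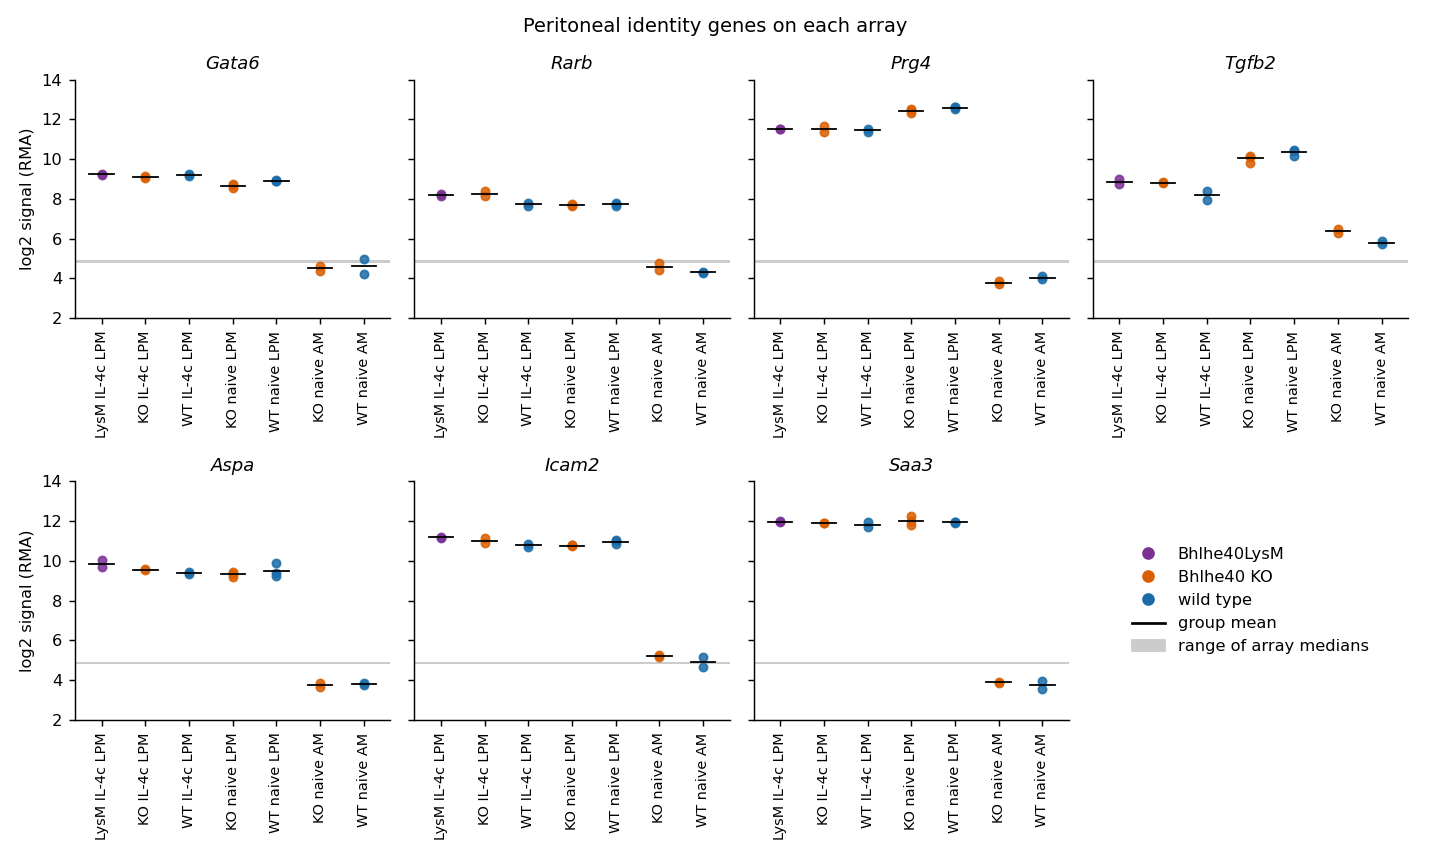
Log2 signal (vertical axis) of the 7 measured genes on each of the 16 arrays, 1 point per array, grouped along the horizontal axis by genotype, treatment and tissue, with a line at the group mean and a grey band at the range of array medians. All LPM points lie above all AM points for each gene. Within LPM the IL-4c points lie above all naive points for Gata6, which was called for IL-4c in neither genotype, and below them for Prg4 and Tgfb2.

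Within LPM the spread over the 12 arrays was narrow for Icam2 (0.5), Saa3 (0.55), Gata6 (0.72), Rarb (0.74) and Aspa (0.84), and wider for Prg4 (1.27) and Tgfb2 (2.5), all in log2 units from the lowest to the highest array. When the 7 group means of a gene were placed in order, the 95% confidence interval of each step was taken from the fit. For Gata6 the order ran from LysM IL-4c (9.24), WT IL-4c (9.2), KO IL-4c (9.13), WT naive (8.92) and KO naive LPM (8.67) to AM, and only the step from LPM to AM, 4.06, had an interval that excluded 0. Aspa, Icam2 and Saa3 had no step between LPM groups with such an interval either. Steps between neighbours in an order are small by construction, so they do not show that the LPM groups are alike. Unadjusted intervals excluded 0 for LysM minus WT under IL-4c in Aspa (0.1 to 0.89) and Icam2 (0.08 to 0.74). The same held for IL-4c minus naive KO in Gata6 (0.09 to 0.82). None of these was called, and Saa3 had no such interval in the LPM comparisons tested.

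Rarb, Prg4 and Tgfb2 had further steps. Rarb had an upper pair, KO IL-4c (8.28) and LysM IL-4c (8.18), which lay 0.44 (interval 0.16 to 0.71) above WT naive (7.74), WT IL-4c (7.73) and KO naive LPM (7.71). Prg4 had WT naive (12.59) and KO naive (12.45) on top, 0.93 (0.67 to 1.2) above LysM (11.52), KO (11.5) and WT (11.46) IL-4c LPM. Tgfb2 had the most levels, with WT naive (10.34) and KO naive (10.04) first, then LysM (8.87) and KO (8.81) IL-4c LPM, then WT IL-4c LPM (8.17), KO AM (6.38) and WT AM (5.81). These intervals are those of the fit without adjustment over genes, and those of neighbours within a level included 0, except that WT naive and KO naive LPM for Tgfb2, which overlap, lay at the limit (unadjusted p = 0.048).

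In untreated mice none of the 7 genes was called between KO and WT, in either tissue. In LPM 1.88% of all genes tested were called, and in AM 0.12%. At an unadjusted p under 0.05, 1 of the 7 passed in each tissue, in both cases Tgfb2, against 1754 of all genes in LPM and 620 in AM. In naive LPM Gata6 read 8.54, 8.75 and 8.72 on KO arrays, against 8.92, 8.95 and 8.9 on WT arrays. Every KO array lay below every WT array, and the difference of -0.25 (interval -0.58 to 0.08) did not pass (adjusted p = 0.49). Rarb read 7.71, 7.75 and 7.66 on KO arrays and 7.75, 7.65 and 7.82 on WT arrays, a difference of -0.04 (-0.28 to 0.21) that turned to 0.06 when the arrays were quantile-normalized again.

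Tgfb2 read 10.11, 10.18 and 9.83 in KO and 10.16, 10.4 and 10.46 in WT naive LPM, which overlap, with a difference of -0.3 (-0.6 to 0; adjusted p = 0.33). Over the 7 genes the median difference in naive LPM was -0.17, beside -0.03 over all genes tested, and 6 of 7 lay below 0, Saa3 being above. In AM Gata6 differed by -0.11 (-0.52 to 0.29; adjusted p = 0.96), between levels that are near background. Tgfb2 in AM read 6.48 and 6.27 on KO arrays, against 5.72 and 5.89 on WT arrays, with no overlap, and its difference of 0.57 (0.21 to 0.94) had an adjusted p of 0.6. The genotype by tissue interaction, the KO minus WT difference in LPM minus that in AM, called none of the 7 genes, beside 0.249% of all genes. Before adjustment 2 of the 7 passed, Tgfb2 with -0.87 ± 0.22 (SE, adjusted p = 0.13) and Icam2 with -0.5 (adjusted p = 0.31).

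**Figure D2:**
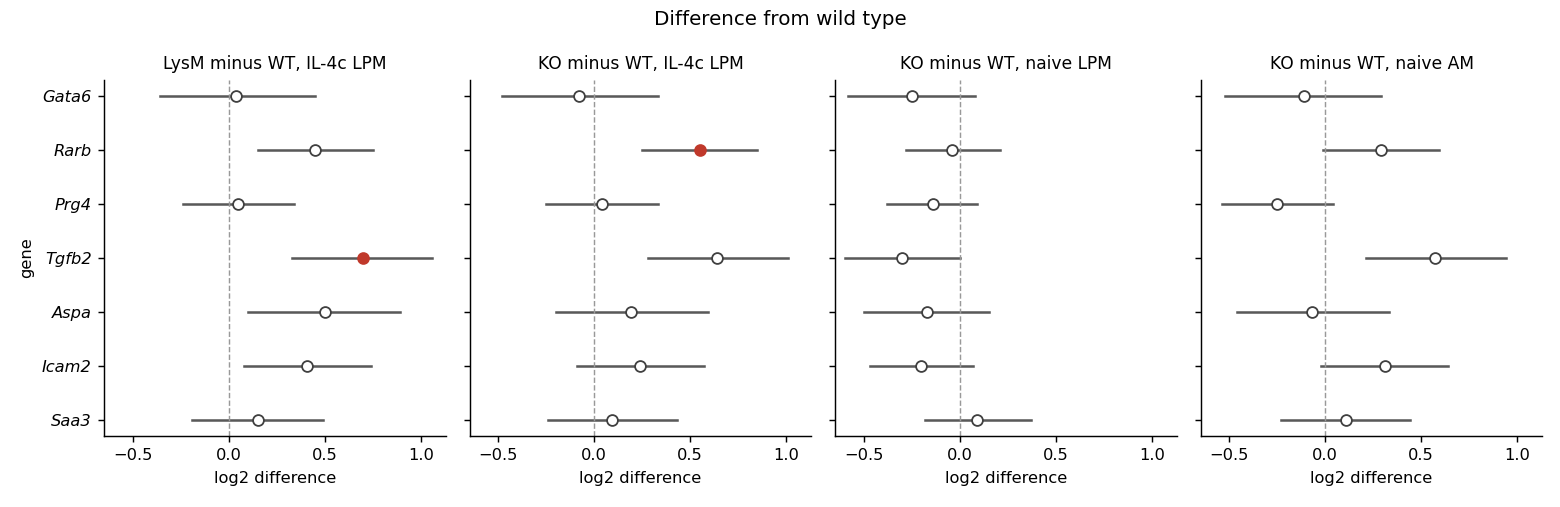
Differences in log2 signal with 95% confidence intervals (horizontal axis) for the 7 genes in each genotype comparison, with filled points for calls at an adjusted p under 0.05. Calls are limited to Rarb in KO and Tgfb2 in LysM-labelled cells, both in LPM after IL-4c; the Gata6 intervals include 0 throughout.

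Prg4 and Tgfb2, 2 of the 7 genes, were lower with IL-4c than without in both genotypes, and Gata6 was not called in either. In KO 3 of 7 were called, 1 higher and 2 lower, where 21.9% of all genes were higher, 15.4% lower and 37.3% called in either direction. In WT 2 of 7 were called, both lower, where 22% were higher, 19.2% lower and 41.2% called in all. The 2 responses come from separate arrays. All IL-4c arrays had a higher maximum value (13.67 to 13.84) than the other arrays (13.15 to 13.33), and which arrays were normalized jointly is not stated. A processing or batch difference between these sets of arrays therefore cannot be told apart from the treatment. Rises and falls with IL-4c, here and below, are differences between the sets.

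Prg4, the lubricin gene, read 11.36 and 11.65 in IL-4c KO against 12.54, 12.33 and 12.46 in naive KO LPM, a difference of -0.94 ± 0.12 (SE; adjusted p = 3.7e-05). In WT it read 11.54 and 11.39 with IL-4c, against 12.61, 12.63 and 12.53 without, 2.18-fold lower (adjusted p = 4.1e-06). Treated and untreated arrays did not overlap. Tgfb2, the ligand gene, read 8.79 and 8.84 in IL-4c KO, against the naive KO values above, 2.34-fold lower (-1.23 ± 0.16; adjusted p = 2.8e-05). In WT Tgfb2 read 8.39 and 7.96 with IL-4c and was 4.49-fold lower than in naive cells (-2.17 ± 0.16; adjusted p = 7.1e-08). Here too no treated array reached an untreated one. Of LPM markers outside the members, 4 of 7 were called lower with IL-4c in KO (median -0.48) and 5 of 7 in WT (median -0.7). Fcgr1, Cd14, Mertk and Csf1r were lower in both, though of these only Csf1r was called higher in LPM than in AM, in either genotype. Itgam and Adgre1 were called in neither genotype. On KO and WT arrays Itgam read 11.42 to 11.61 with IL-4c and 11.4 to 11.73 without, and Adgre1 11.36 to 11.74 and 11.42 to 11.59. The part of these markers in the falls was not tested.

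Gata6 read 9.08 and 9.17 in IL-4c KO, 0.46 above naive KO (interval 0.09 to 0.82; adjusted p = 0.051). In WT it read 9.24 and 9.17 with IL-4c, 0.28 above naive (-0.09 to 0.65; adjusted p = 0.22). With the arrays labelled LysM (9.23 and 9.26), all 6 IL-4c arrays lay above all naive LPM arrays. How many of all genes separated the arrays in this way was not counted, while 37.3% in KO and 41.2% in WT were called for IL-4c. The KO value passed the threshold when each array was centred on its median (adjusted p = 0.024) and in 2 other settings.

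Rarb rose 1.48-fold with IL-4c in KO (0.57 ± 0.13, SE; adjusted p = 0.0028), with 8.39 and 8.16 in treated against 7.71, 7.75 and 7.66 in untreated cells. Without the first treated KO array the difference was 0.46 and the adjusted p 0.052. In WT it read 7.79 and 7.66 treated, within the untreated range, with a difference of -0.01 (adjusted p = 0.94). The other genes were not called. Icam2 differed by 0.25 in KO and -0.19 in WT, Aspa by 0.24 and -0.13, and Saa3 by -0.12 in each. Markers of endothelial cells, which also express Icam2, averaged 4.35 to 4.55 on IL-4c LPM arrays and 3.99 to 4.24 on naive ones (8 markers). Pecam1 among them read 6.36 to 7.33 on IL-4c arrays and 4.02 to 4.49 on naive ones, rose with IL-4c by 2.08 in KO and 3.1 in WT, and was lower in KO than in WT under IL-4c (-0.77; adjusted p = 0.026). The other 7 averaged 4.06 to 4.19 on IL-4c arrays and 3.96 to 4.22 on naive ones, and the part of these cells was not tested.

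**Figure D3:**
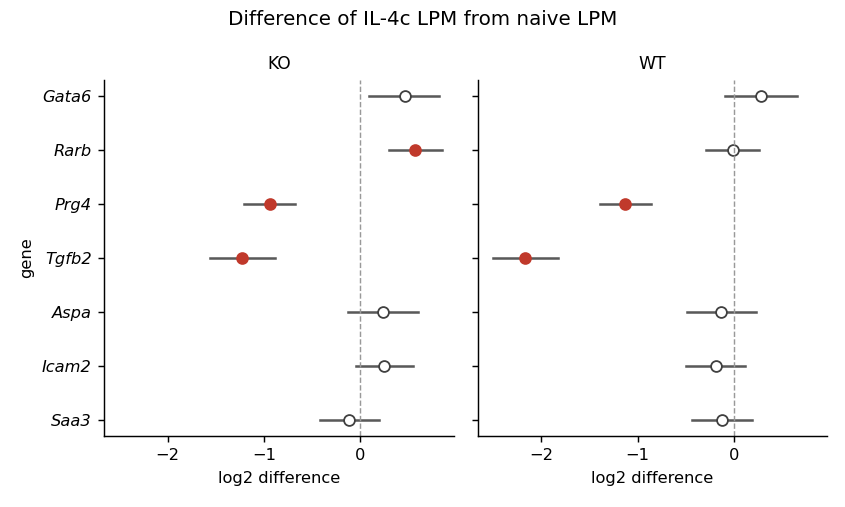
Difference in log2 signal between IL-4c and naive LPM with 95% confidence intervals (horizontal axis) for the 7 genes, in KO and in WT, with filled points for calls. Prg4 and Tgfb2 lie below 0 in both genotypes, and Tgfb2 lies at -1.23 in KO and -2.17 in WT, a difference between genotypes that did not pass adjustment (adjusted p = 0.07).

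Under IL-4c, 1 gene was called in each comparison with WT, Rarb in KO and Tgfb2 in the cells labelled LysM, both higher than in WT, and Gata6 was called in neither. The directions given for LysM rest on its label, since the Bhlhe40 signal did not separate those arrays from WT. In KO against WT 1 of 7 was called, Rarb, where 2.12% of all genes were called higher and 3.63% in either direction. In LysM against WT 1 of 7 was called, Tgfb2, where 4.8% were called higher and 8.67% in all. The 2 comparisons share the same 2 WT arrays, so each gene's values stand side by side and are no independent repeat. At an unadjusted p under 0.05, 2 of 7 passed in KO and 4 in LysM-labelled cells, beside 1961 and 2589 of all genes.

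Rarb read 8.13 and 8.23 on arrays labelled LysM, 8.39 and 8.16 on KO arrays and 7.79 and 7.66 on WT arrays, so all 4 of the LysM-labelled and KO arrays lay above both WT arrays. Its difference from WT was 0.45 ± 0.14 in LysM-labelled cells (interval 0.15 to 0.75; adjusted p = 0.059) and 0.55 ± 0.14 in KO (0.25 to 0.85; adjusted p = 0.044), or 1.37-fold and 1.46-fold. Tgfb2 read 8.98 and 8.76 on arrays labelled LysM, 8.79 and 8.84 on KO arrays and 8.39 and 7.96 on WT arrays, again without overlap. It was 1.62-fold higher in LysM-labelled cells (0.7 ± 0.17; 0.33 to 1.06; adjusted p = 0.019) and 1.56-fold higher in KO (0.64 ± 0.17; 0.28 to 1.01; adjusted p = 0.051). Both calls depend on single arrays, and that of Rarb was kept in 5 of 13 alternative settings. Without the first KO array Rarb in KO was 0.44, without the second WT array 0.49 and without the first WT array 0.61, none of them called. Tgfb2 in LysM-labelled cells was 0.49 without the second WT array and 0.59 without the first LysM array, both uncalled.

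Gata6 read 9.23 and 9.26 on arrays labelled LysM, 9.08 and 9.17 on KO arrays and 9.24 and 9.17 on WT arrays. Its difference from WT was 0.04 in LysM-labelled cells (-0.36 to 0.45) and -0.08 in KO (-0.48 to 0.33), and each overlapped WT, while both LysM-labelled arrays lay above both KO arrays. Aspa read 10.03 and 9.71 on arrays labelled LysM, 9.58 and 9.55 on KO arrays and 9.32 and 9.42 on WT arrays. Icam2 read 11.22 and 11.17, 11.14 and 10.91, and 10.72 and 10.85 on LysM, KO and WT arrays. For both genes every LysM-labelled and KO array lay above every WT array. With 2 arrays a group, and the same WT arrays in both comparisons, such separation is easily reached. Its share over all genes was not counted. Neither gene was called, with 0.5 in LysM-labelled cells for Aspa (adjusted p = 0.12) and 0.41 for Icam2 (adjusted p = 0.12). Prg4 and Saa3 differed from WT by 0.15 or less. The median of the 7 differences was 0.41 in LysM-labelled cells and 0.19 in KO, beside -0.01 and -0.02 over all genes.

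LysM-labelled and KO cells themselves differed in none of the 7 genes, where 0.0172% of all genes were called and 1024 genes, none of the 7, had an unadjusted p under 0.05. The LysM minus KO difference was -0.1 for Rarb (-0.4 to 0.2), 0.06 for Tgfb2 (-0.31 to 0.42) and 0.12 for Gata6 (-0.29 to 0.52). The genotype by IL-4c interaction, the KO minus WT difference with IL-4c minus that without, also called none, beside 0.55% of all genes, with 3 of 7 and 1521 of all genes at an unadjusted p under 0.05. It was 0.94 ± 0.22 for Tgfb2 (0.47 to 1.41; adjusted p = 0.07), 0.58 ± 0.18 for Rarb (0.2 to 0.97; adjusted p = 0.16), 0.44 for Icam2 (adjusted p = 0.36) and 0.18 for Gata6 (-0.35 to 0.7; adjusted p = 0.82). The difference between genotypes in the IL-4c response of Tgfb2 and of Rarb thus did not pass after adjustment over all genes.

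Genes of the retinoic acid pathway, which makes, carries and senses the ligand of Rarb, comprised 27 listed genes, of which 18 were tested. In naive LPM 0 were higher and 2 lower in KO, where 1.35% of all genes were lower, with a median difference of -0.14, beside -0.03 over all genes. Rara, the alpha receptor, read 7.58, 7.53 and 7.5 in KO against 8.31, 8.1 and 8.22 in WT naive LPM, 1.59-fold lower (-0.67 ± 0.11; adjusted p = 0.0038). Aldh1a2, the enzyme that makes retinoic acid from retinal, read 5.51, 6.29 and 6.07 in KO against 6.65, 7 and 6.78 in WT (-0.85 ± 0.19; adjusted p = 0.036). For both genes no KO array reached a WT array. The Aldh1a2 call was lost in 7 of 15 settings, with an adjusted p of up to 0.15 and a difference of -0.63 without the first KO array. Aldh1a2 is also a mesothelial marker, and mesothelial markers averaged 4.06 to 4.23 on KO and 4.04 to 4.15 on WT naive LPM arrays (12 markers). Of the small peritoneal macrophage, monocyte and dendritic cell markers, of which 4 were tested, Irf4 was lower in KO (-0.61; adjusted p = 0.019) and Cd209a differed by -1.19 (adjusted p = 0.076), with a median of -0.34, and their part was not tested.

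Under IL-4c none of the 18 retinoic acid genes was called in KO against WT, where Rara differed by 0.02, and 3 were higher in LysM-labelled cells, where 4.8% of all genes were higher. They were Tgm2, a transglutaminase inducible by retinoic acid (1.86 ± 0.42; adjusted p = 0.012), the dehydrogenase gene Dhrs9 (1.6; adjusted p = 0.018) and the reductase gene Dhrs3 (0.59; adjusted p = 0.018). Tgm2 read 11.02 and 10.04 in LysM-labelled cells, 10.36 and 8.78 in KO and 8.87 and 8.48 in WT, with a wide spread between arrays. All 3 calls were lost with only the compared arrays and without the first LysM array, where Dhrs9 was 0.68, Tgm2 1.37 and Dhrs3 0.5 above WT. Each was also lost without at least 1 of the WT arrays. Of the 18, 7 were higher and 1 lower with IL-4c in KO, where 21.9% of all genes were higher and 15.4% lower. In WT 4 were higher and 2 lower, beside 22% and 19.2%, which is near the share over all genes. Tgm2 led both, 3.72 in KO and 2.91 in WT, followed by Dhrs9 (1.96 and 1.64) and Aldh1a2 (1.23 and 0.86), while the nuclear receptor corepressor Nrip1 fell by 0.9 in KO and by 1.47 in WT. Without the second treated array of each genotype, Nrip1 in KO was -0.71 (adjusted p = 0.077) and Aldh1a2 in WT 0.6 (adjusted p = 0.098), both uncalled. Between LPM and AM, the receptor gene Rarg was higher in LPM by 1.81 in KO and 2.11 in WT, and Rara differed the other way, -1.47 in KO and -0.68 in WT.

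Of the TGF-beta pathway 18 of 24 listed genes were tested, and under IL-4c those called between genotypes were the receptor genes and Lrrc32. In LysM 4 were higher and 0 lower than in WT, where 4.8% of all genes were higher (median 0.27, beside -0.01 over all genes). In KO 3 were higher and 0 lower, where 2.12% were higher (median 0.25, beside -0.02). Tgfbr2, which encodes a TGF-beta receptor, read 8.4 and 8.73 in LysM-labelled cells, 8.7 and 8.13 in KO and 7.09 and 7.2 in WT. It differed from WT by 1.42 ± 0.2 in LysM-labelled cells (adjusted p = 0.00056) and by 1.27 ± 0.2 in KO (adjusted p = 0.0023), and both calls were kept in all 13 alternative settings. Lrrc32, a surface protein that tethers latent TGF-beta, read 7.77 and 7.93 in LysM-labelled cells, 7.79 and 6.98 in KO and 5.57 and 6.26 in WT, 1.93 and 1.47 above WT. The KO call of Lrrc32 was lost without the first KO array (1.06; adjusted p = 0.075) or the first WT array (1.12; adjusted p = 0.051). The co-receptor gene Tgfbr3 was 0.91 higher in LysM-labelled cells and 0.88 in KO, and Tgfbr1, the partner of Tgfbr2, 0.82 higher in LysM-labelled cells (adjusted p = 0.0017) and 0.5 in KO (adjusted p = 0.053). The Tgfbr3 calls were lost without the first LysM array (0.75; adjusted p = 0.057) and, in KO, without the first KO array or either WT array (adjusted p = 0.053 to 0.076).

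In naive cells none of the 18 TGF-beta genes was called between KO and WT, in LPM or AM, and none passed the genotype by IL-4c interaction, where Tgfbr2 had 1.14 (adjusted p = 0.06). Tgfbr2 read 8, 8.32 and 8.05 in KO and 8.05, 7.88 and 8.06 in WT naive LPM, and with IL-4c it differed by 0.29 in KO (adjusted p = 0.23) and fell by 0.85 in WT (adjusted p = 0.0014). With IL-4c 4 of the 18 were higher and 3 lower in KO, near the 21.9% and 15.4% over all genes. In WT 2 were higher and 6 lower, beside 22% and 19.2%. Ltbp1, which binds latent TGF-beta in the matrix, fell by 1.75 in KO and by 1.83 in WT, and Lrrc32 rose by 2.2 in KO and by 1.18 in WT. Between tissues Ltbp1 was higher in LPM by 5.49 in KO and 6.17 in WT, while Tgfbr1 differed by -2.76 and -2.49.

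**Figure D4:**
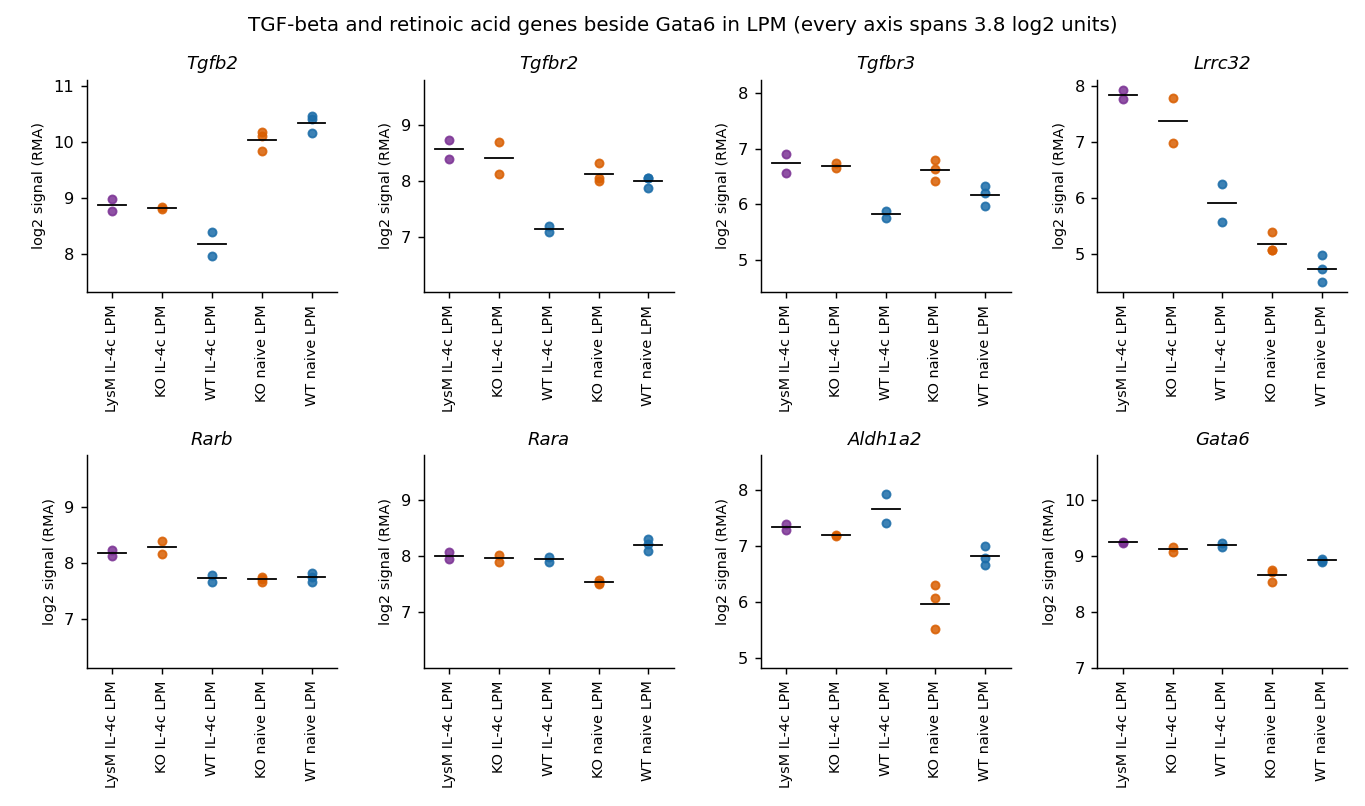
Log2 signal (vertical axes, all of the same span) of Tgfb2, Tgfbr2, Tgfbr3 and Lrrc32 (upper row) and of Rarb, Rara, Aldh1a2 and Gata6 (lower row) on each LPM array by group, with 1 point per array and a line at the group mean. Rara and Aldh1a2 are lower in KO than in WT naive LPM, and Tgfb2, Tgfbr2, Tgfbr3 and Lrrc32 are lowest in WT among the IL-4c groups.

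Gata1 to Gata5 read 3.45 to 5.32 on all arrays, near or below the medians, and of the 7 listed family members and cofactors 3 were tested. None of them was called between genotypes, and Zfpm1, a GATA cofactor, was the single call between tissues, at 0.35 in KO, a call lost in 10 settings and at 0.26 with median centring. Among 12 listed relatives of the other genes, 6 were tested, and Saa1, a liver-type relative of Saa3, stayed between 2.33 and 5.28 on all arrays. Icam1 ran opposite to Icam2 between tissues, with an LPM minus AM difference of -1 in KO and -0.92 in WT, and was 0.77 higher in KO than in WT under IL-4c (adjusted p = 0.025). Without the first KO array that difference was 0.54 and without the second WT array 0.63, both uncalled. Selplg, the ligand of P-selectin, was higher in LPM by 0.88 in KO and 1.13 in WT.

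A further list of 26 genes known from LPM, 25 of them measured and tested, included genes that were lower in KO. In naive LPM 0 of 25 were higher and 4 lower in KO, where 1.35% of all genes were lower (median -0.34, beside -0.03 over all genes). Lrg1, a secreted leucine-rich glycoprotein, read 8.8, 8.63 and 9.06 in KO and 11.21, 10.77 and 11.41 in WT, 4.93-fold lower (-2.3 ± 0.22; adjusted p = 3e-05). Hdc, the enzyme that makes histamine, read 6.98, 6.92 and 6.71 in KO and 8.76, 8.72 and 8.69 in WT, 3.62-fold lower (adjusted p = 0.00015). Both calls were kept in all 15 alternatives. Garnl3 and Vmn2r26 were also lower, and their calls were lost in 7 and 4 of 15 settings. Markers of mast cells, which also make histamine, averaged 3.51 to 3.76 in KO and 3.42 to 3.78 in WT naive LPM.

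Under IL-4c the same list held 4 higher and 5 lower genes in LysM-labelled cells, where 4.8% of all genes were higher and 3.87% lower, and 2 higher and 5 lower in KO, where 2.12% were higher and 1.5% lower. Lrg1 read 9.11 and 10.2 in LysM-labelled cells, 9.78 and 9.97 in KO and 11.47 and 11.51 in WT. Hdc read 8.93 and 8.22 in LysM-labelled cells, 7.71 and 7.08 in KO and 8.53 and 8.75 in WT. It was called lower in KO (-1.25), a call lost in 3 of 13 settings, and was not called in LysM-labelled cells. Hgf, the hepatocyte growth factor gene, read 5.71 and 4.76 in LysM-labelled cells, 5.06 and 4.55 in KO and 3.45 and 3.16 in WT, 1.93 and 1.5 higher. The KO call was lost without the first KO array (1.25) or the second WT array (1.35). Hgf was the 1 gene of the list with a called genotype by IL-4c interaction (2.24 ± 0.33; adjusted p = 0.0041), and its IL-4c minus naive difference was -0.72 in KO and -2.96 in WT. The KO fall was -0.47 and uncalled without the second treated array, and it was also lost without the first or the second untreated one (-0.68 each). With IL-4c 11 of the 25 were lower in KO and 13 in WT, where 15.4% and 19.2% of all genes were lower. The 11 lowered in KO were also lowered in WT, which is 44% of the 25, beside 11.5% of all genes lowered in both. The list was drawn from genes known from LPM, while all genes tested include genes dim on LPM arrays. Its shares called lower, here and between genotypes, are therefore not set against like genes. Cxcl13, a chemokine that attracts B cells, fell by 3.67 in KO and by 5.32 in WT, and the integrin gene Itga6 by 2.8 in KO and 2.24 in WT. Cd5l, a secreted survival protein of macrophages, rose by 0.43 in KO and 0.67 in WT. Without the first treated KO array the KO difference of Cd5l was 0.24 and uncalled. Between tissues 21 of the 25 in KO and 22 in WT were higher in LPM, where 17.3% and 21.2% of all genes were, and since the list was drawn from genes known from LPM this direction is its own.

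**Figure D5:**
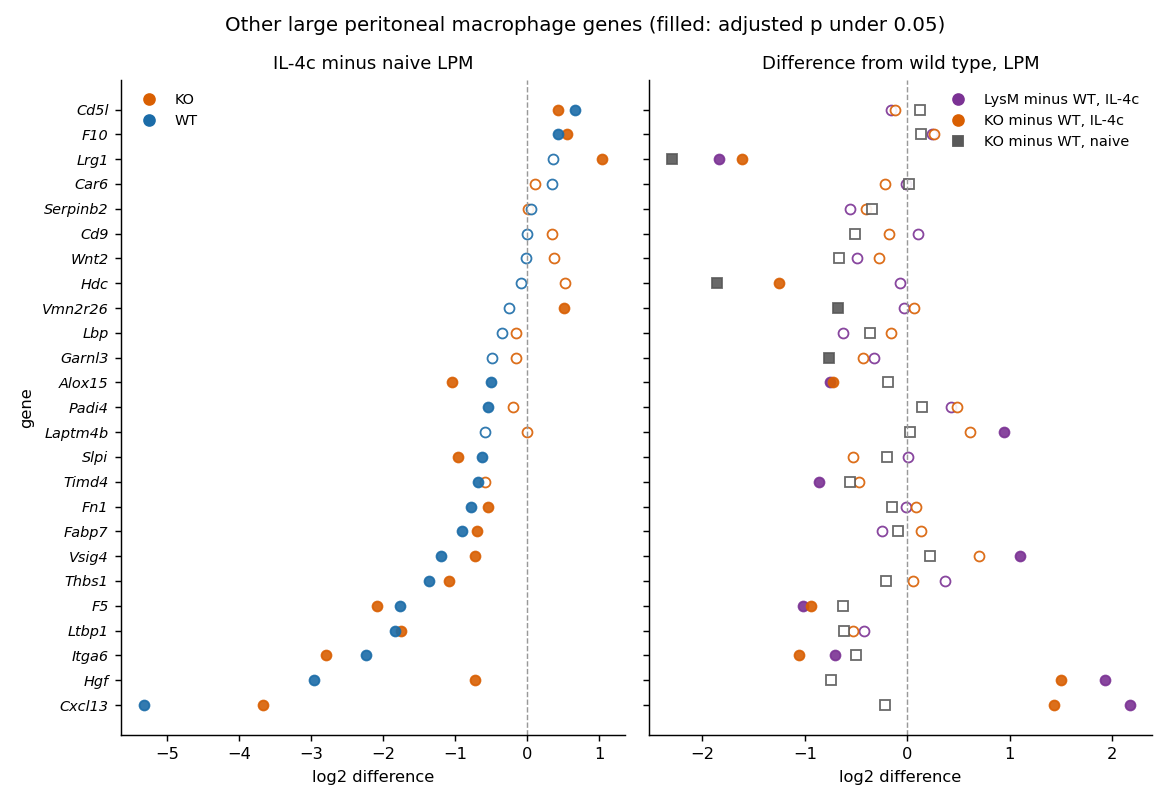
Differences in log2 signal (horizontal axes) of the 25 further LPM genes (rows), IL-4c minus naive LPM in KO and WT on the left, and on the right the arrays labelled LysM minus WT and KO minus WT under IL-4c, and KO minus WT in naive LPM; filled marks are calls at an adjusted p under 0.05. Lrg1 and Hdc lie furthest below 0 in naive KO cells, and Cxcl13 (-5.32) and Hgf (-2.96) lie lowest after IL-4c in WT.

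Some markers of other cell types were above the array medians on LPM arrays and moved with IL-4c or genotype, and their part in the results was not tested. Of the small peritoneal macrophage, monocyte and dendritic cell markers 8 of 9 were measured, and they averaged 4.59 to 4.92 on IL-4c LPM arrays and 4.57 to 4.78 on naive ones. With IL-4c Irf4 rose by 1 in KO and 0.82 in WT, Cd209a rose by 2.07 in KO (0.81 in WT; adjusted p = 0.087), and Ccr2 fell by 1.68 in KO and by 1.1 in WT. Irf4 was also lower in LysM-labelled cells than in WT (-0.8; adjusted p = 0.0049). B cell markers averaged 3.66 to 3.88 on IL-4c LPM arrays, 4.15 to 4.87 on KO naive and 4.34 to 4.46 on WT naive LPM arrays (7 measured). Of 4 tested, 4 fell with IL-4c in KO and 3 in WT, among them Cd79a by 1.05 in KO and 1.65 in WT. The neutrophil marker S100a8 read 5.9 to 7.77 on LPM arrays and 7.62 to 7.88 on AM arrays. The AM marker Pparg was higher in KO than in WT by 1.04 under IL-4c and 0.87 in naive LPM, at levels of 4.6 to 6.01 on LPM arrays. Mesothelial markers averaged 4.04 to 4.37 on all LPM arrays, and 2 of 12 lay above the array median throughout. Of the platelet markers Pf4, which macrophages also express, read 10.89 to 12.11 and was higher than in WT under IL-4c by 0.75 in LysM-labelled cells and 0.71 in KO, while the platelet integrin gene Itga2b read 4.21 to 4.62.

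The genes whose pattern was most like that of Gata6 were ranked by Pearson's r among 11179 genes. Over the 7 group means they were Cd5l (0.999), Ifitm6, Msi2, Car6, Sh3bp1, Fgfr1, Aspa (all 0.998) and Klf2 (0.997). Aspa thus ranked 7, Icam2 16, Saa3 29, Rarb 64, Prg4 189 and Tgfb2 1237 with an r of 0.86. These 7 points share the split between LPM and AM. Over the 12 LPM arrays alone the leading genes were Pla2g12a (0.986), Pdcd6 (0.963), Slc35c1 (0.962) and Sema6b (0.961), none of the 7. Among the 7, Rarb had 0.57, Icam2 0.472, Aspa 0.441, Saa3 -0.512, Tgfb2 -0.775 and Prg4 -0.824, so Gata6 ran opposite to Prg4 and Tgfb2 within LPM. These points share the split between IL-4c and naive arrays, and the values are descriptions.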

How the data were processed

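Values are log2 signal per probe set, deposited by the authors for 16 arrays and 30177 probe sets. Per the submitters' processing notes they were made with RMA, which corrects background, equalises the distributions of the arrays and summarises probe sets, so total RNA per cell cannot be compared. The RMA version and the set of arrays normalized jointly are not stated in the sources used here. The values carry no detection calls and no read depth. Groups came from the sample titles. Only the 21789 probe sets with 1 symbol were used (1621 had several, 6767 none), and the brightest on average stood for each of the 999 genes with more. Genes above the array median on at least 2 arrays were tested (11634 of 19938).

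Means of the 7 groups were fitted to all arrays with limma 3.58.1 under R 4.3.3 (9 residual and 6.61 prior degrees of freedom; the median SD within groups was 0.171). Calls needed a Benjamini-Hochberg adjusted p under 0.05 within each of 11 comparisons. The fit was tested on simulated data. Errors after ± are standard errors of differences, intervals are 95% and unadjusted, and a fold is 2 raised to the log2 difference. Lack of overlap between the arrays of groups is a description of few arrays, and its share over all genes was not counted. Promoter windows and gene positions came from RefSeq tables (GRCm38.p6). Members on chromosome 18, where Gata6 lies, were left out of the promoter search, and 5 of the 8 genes then had a window. The rule for names took all members and the called genes of the lists, of which the text gives examples. The members and lists were chosen with earlier results of these data known, and no list was given a p. The alternatives tried are named in the closing section. The olfactory receptor filter there kept genes above the 95th percentile of signal from 1035 probe sets of olfactory receptors, in place of the array median. Plots used matplotlib 3.10.9 and Python 3.11.15.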

Additional observations from a re-analysis of the deposited data

How the results depend on the processing

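Groups of 2 arrays limit the calls under IL-4c. In KO against WT 1 of the 7 genes was called, and 0 with median centring, no dim filter, only the compared arrays, a replicate block or array weights, and 2 with an intensity trend and robust variance; leaving out each array gave 0 to 1. The Rarb call in KO was kept in 5 of 13 settings, with adjusted p of 0.035 to 0.3 and differences of 0.44 to 0.66, and Tgfb2 in KO had adjusted p of 0.028 to 0.46. In LysM against WT the count of 1 became 3 after a second quantile normalization and 0 with only the compared arrays, and 0 to 1 without each array; Tgfb2 in LysM had differences of 0.49 to 0.91 and adjusted p of 0.0094 to 0.24. The genotype by IL-4c interaction had 0 calls, 1 with an intensity trend (Tgfb2) and 0 to 1 without each array, and the IL-4c response in KO 2 to 3 without each array. The olfactory receptor filter and averaging all probe sets per gene left every member count as it was.

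Values that changed sign were all uncalled. A second quantile normalization gave Rarb 0.06 in naive LPM (KO minus WT) and Saa3 -0.05 in the genotype by IL-4c and 0.04 in the genotype by tissue interaction, and median centring gave Rarb 0.01 for IL-4c in WT. Without each array in turn, KO minus WT in AM ran from -0.5 to 0.28 for Gata6, -0.17 to 0.04 for Aspa and -0.1 to 0.31 for Saa3; in naive LPM from -0.08 to 0.01 for Rarb, -0.32 to 0.02 for Aspa and -0.02 to 0.2 for Saa3; and in IL-4c LPM from -0.11 to 0.19 for Prg4 and -0.02 to 0.21 for Saa3. LysM minus WT ran from -0.02 to 0.13 for Prg4, and LysM minus KO from -0.21 to 0.02 for Rarb, -0.14 to 0.16 for Prg4 and -0.05 to 0.17 for Tgfb2. IL-4c minus naive in WT ran from -0.08 to 0.05 for Rarb and -0.27 to 0.06 for Aspa. The interaction with IL-4c ran from -0.12 to 0.12 for Saa3, and that with tissue from -0.53 to 0.25 for Gata6, -0.25 to 0.09 for Aspa and -0.21 to 0.19 for Saa3. The cause was not tested. Of 1127 member values under alternatives, 1074 kept direction and side of the threshold, 12 lost and 9 gained a call, and 32 changed sign.

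Called genes of the pathway and further LPM lists kept every call in 3 of 6 cases in naive KO LPM, 2 of 11 in IL-4c KO and 3 of 16 in LysM. Calls over all genes ranged from 75 to 419 in naive LPM (219), 84 to 499 in IL-4c KO (422), 150 to 1193 in LysM (1009), 0 to 111 in LysM minus KO (2), 8 to 19 in AM (14), 2787 to 4522 for IL-4c in KO (4342), and 20 to 124 and 9 to 62 for the interactions with IL-4c (64) and tissue (29). In naive LPM 28.3% of calls were higher in KO, 45.6% after a second quantile normalization. Deviations of same-numbered arrays correlated at 0.115 to 0.21 within IL-4c LPM, at -0.139 to 0.066 within naive LPM and at -0.071 in AM. The labels tie the numbers to no shared animal or day, and the IL-4c groups hold 2 numbers each, so they are not taken as pairs, though those of IL-4c LPM may be; with the replicate block the Rarb call in IL-4c KO was lost (adjusted p = 0.076). Where 1 array of a group of 2 was left out, the other was taken to vary as the remaining groups do.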
